A study of Mus musculus with 4 samples.

Results

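The genes described here are the receptors of the interferons, the innate sensors of foreign nucleic acid, the transcription factors of the pathway and a set of interferon-stimulated genes, 41 genes in all. They were chosen by symbol, and each of the 41 was found among the 39179 genes of the deposited counts. RNA was sequenced from 4 libraries of B16F1, an established mouse melanoma cell line. Parental B16F1 control cells, grown on rigid dishes, gave 2 libraries. Tumor repopulating cells (TRCs) gave the other 2 libraries, and are the spheroids that grew from B16F1 cells seeded singly in soft 3D fibrin gels of 90 Pa stiffness, isolated on day 5. The labels name no interferon or other added agent for either group. Selection by the gel and growth in the gel cannot be told apart. The libraries of each group carry the numbers 1 and 3, and no label says what a number stands for or whether the samples were separate cultures, so p-values measure only the spread between these samples.

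Interferons are secreted proteins. Cells release those of type I when sensors such as RIG-I (*Ddx58*), MDA5 (*Ifih1*) or cGAS (*Mb21d1*) bind viral or misplaced nucleic acid. Type I interferons bind the receptor chains IFNAR1 and IFNAR2, after which a complex that holds STAT2 and IRF9 binds the interferon-stimulated response element (ISRE) in the promoters of target genes. Interferon gamma binds IFNGR1 and IFNGR2 and acts mainly at the gamma-activated sequence (GAS), and tumor cells are known to keep a low level of many target genes without added interferon.

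The libraries held 35948295 to 43511554 counts on genes, so that 3 counts, the smallest number taken as detectable, corresponded to between 0.0689 and 0.0835 counts per 1000000 counts of a library (CPM), a bound that covers counting error only. All 10 melanocytic markers were expressed above the filter used below, and 10 of 18 leukocyte markers, *Ptprc*, *Cd3e*, *Itgam* and *Adgre1* among them, had 0 counts in each library. The summed level of the 18 leukocyte markers was between 2.79 and 6.66 CPM, against 16277 to 27441 CPM for the 10 melanocytic markers, 3.24 to 12.1 CPM for 8 fibroblast markers and 0.567 to 2.50 CPM for 6 endothelial markers. Reads that aligned to several places were left out by the counting and made up 15.2% to 25.2% of the alignments of a library, so genes with near-identical copies, such as *Ifit3* with *Ifit3b* or *Oas1a* with its neighbours, are undercounted by an unknown amount. In bulk RNA, fewer cells that express a gene and less RNA per cell cannot be told apart.

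The promoters of these genes were examined first, since the ISRE is what the target genes are known to share. RefSeq promoters of GRCm38.p6, from 250 bases before to 50 bases after the start of the gene, were held for 33 of the 41 genes. The ISRE core, GAAA followed by any 2 bases and GAAA again, searched on both strands with overlapping matches kept, was found in 14 of the 33 genes (42.4%), against 3.99% of all 27025 genes with a promoter. It was found in 6 of 10 antiviral effector genes, in 3 of 3 guanylate-binding protein genes and in 0 of 4 receptor genes. The GAS pattern TTCNNNGAA was found in 10 of the 33 genes (30.3%), against 9.55% of all genes, and 2 of these 10 were the receptor genes *Ifnar1* and *Ifnar2*. The GAS and ISRE matches overlapped in the promoter of *Bst2*. A match is a run of letters and not a measured binding site, and no match says only that these letters were not in the window. The 160 bases before the start are shown for 3 genes that were higher in replicate 1 in both groups (*Isg15*, *Ifit1*, *Ifit3*), for the genes with the largest rise and the largest fall in TRCs (*Rsad2*, *Gbp2*) and for the receptor gene *Ifnar1*. These were picked as examples and their numbers of matches do not stand for the set. Of tested genes with a promoter, 11 of 21 with replicate 1 higher in both groups (52.4%) had the core. Of the others tested, 3 of 9 had it (33.3%), and no relation to the replicate number was tested. Sequences run 5′ to 3′ on the strand of the gene, and capitals mark matches of the ISRE core on either strand, so that a match on the other strand reads as its reverse complement.
Isg15 (chr4:156200819-156200978, minus strand): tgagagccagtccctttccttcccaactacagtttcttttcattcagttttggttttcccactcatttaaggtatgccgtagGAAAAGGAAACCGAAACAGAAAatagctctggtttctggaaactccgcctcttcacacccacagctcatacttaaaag
Ifit1 (chr19:34640729-34640888, plus strand): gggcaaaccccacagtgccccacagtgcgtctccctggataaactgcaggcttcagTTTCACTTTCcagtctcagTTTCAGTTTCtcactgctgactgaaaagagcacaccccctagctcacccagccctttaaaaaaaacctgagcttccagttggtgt
Ifit3 (chr19:34583369-34583528, plus strand): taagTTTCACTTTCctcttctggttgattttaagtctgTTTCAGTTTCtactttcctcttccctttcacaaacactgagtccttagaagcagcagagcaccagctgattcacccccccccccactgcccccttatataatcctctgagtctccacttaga
Rsad2 (chr12:26456453-26456612, minus strand): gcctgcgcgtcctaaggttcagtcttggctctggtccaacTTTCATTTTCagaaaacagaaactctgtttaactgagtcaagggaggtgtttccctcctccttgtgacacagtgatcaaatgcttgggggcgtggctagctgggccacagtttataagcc
Gbp2 (chr3:142620503-142620662, plus strand): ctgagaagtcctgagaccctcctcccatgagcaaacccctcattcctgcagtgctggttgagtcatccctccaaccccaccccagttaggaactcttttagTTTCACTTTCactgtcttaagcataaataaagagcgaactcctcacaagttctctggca
Ifnar1 (chr16:91485055-91485214, plus strand): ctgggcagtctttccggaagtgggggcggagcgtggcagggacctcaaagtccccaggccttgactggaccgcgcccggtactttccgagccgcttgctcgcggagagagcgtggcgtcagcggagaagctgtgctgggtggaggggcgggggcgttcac
*Isg15* had 3 overlapping matches that merge into a single run between positions -78 and -57 from the start. *Ifit1* had 2 separate matches, which begin at positions -104 and -85, and *Ifit3* had 2 that begin at -156 and -122. *Rsad2* and *Gbp2* each had 1 match, at positions -120 and -59. *Ifnar1* had none in the stretch shown.

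Between TRCs and parental cells, 4 of these genes were upregulated, *Rsad2*, *Stat2*, *Ifngr2* and *Ifnar1*, and 2 were downregulated, *Gbp2* and *Mb21d1*. The other 32 of the 38 genes that passed the filter on low counts did not pass the test. Genes were kept at 1 CPM or more in 2 or more libraries, and the test was the exact test of edgeR, adjusted after Benjamini-Hochberg over 11483 genes and read at an FDR under 0.05. The 6 calls are 15.8% of the genes tested from the set, and 15.9% of all genes tested were called, so the set was called about as often as any gene. Split by direction, 8.81% of all genes were called up and 7.05% down. Over the 38 genes the log2 fold changes had a median of 0.16, against 0.0034 over all genes, with 25 genes above 0 and 13 below. This median turned negative without parental replicate 3 (−0.14) and without TRC replicate 1 (−0.14), and was 0.54 without parental replicate 1 and 0.36 without TRC replicate 3. The 2 groups did not overlap for 15 of the 38 genes (39.5%), against 60.6% of all genes. Of these, 9 were higher in TRCs and 6 lower, against 30.2% and 30.4% of all genes. *Oasl1*, *Oasl2* and *Ifi44* were below the filter, at 0.057 to 0.99 CPM in each library, and were not tested.

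**Figure D1:**
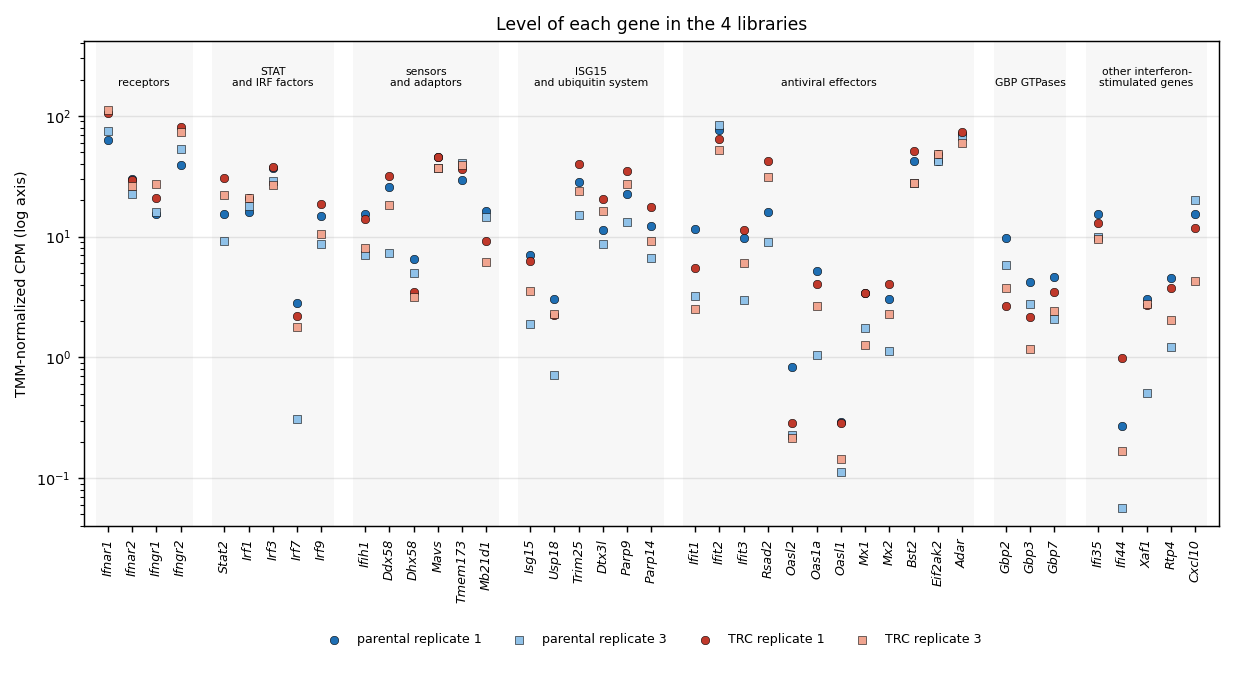
TMM-normalized CPM (log axis) of each of the 41 genes in the 4 libraries, grouped by role, with circles for replicate 1 and squares for replicate 3, blue for parental cells and red for TRCs. The receptor genes *Ifnar1*, *Ifngr1* and *Ifngr2* separate by color, while for *Isg15*, *Ifit1*, *Ifit3* and *Mx1* both circles lie above both squares.

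The receptors were expressed in each library, and 2 of the 4 chains were called higher in TRCs. *Ifnar1* (ENSMUSG00000022967, chromosome 16 from 91485238 to 91507441, plus strand, positions from GENCODE M21 on GRCm38), a chain of the type I receptor, stood at 63.4 and 75.7 CPM in parental replicates 1 and 3 and at 106 and 113 CPM in TRC replicates 1 and 3. Both TRC libraries were above both parental libraries, and the log2 fold change was 0.65 (SE 0.21, FDR = 0.0304). *Ifngr2* (ENSMUSG00000022965, chromosome 16 from 91547072 to 91565623, plus strand), the signaling chain of the interferon gamma receptor, stood at 38.9 and 53.0 CPM in parental cells and at 81.1 and 73.9 CPM in TRCs. Here too the groups did not overlap, with a log2 fold change of 0.75 (SE 0.24, FDR = 0.0157). *Ifngr1*, which binds the ligand, was at 15.5 and 15.9 CPM in parental cells and at 21.0 and 27.4 CPM in TRCs. Its groups did not overlap either, but the log2 fold change of 0.63 did not pass the test (FDR = 0.154), and *Ifnar2* had one of 0.079 (FDR = 0.891). The summed level of the 4 receptor genes was 148 and 167 CPM in parental replicates 1 and 3, and 237 and 240 CPM in TRC replicates 1 and 3.

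Among the transcription factors, *Stat2* (ENSMUSG00000040033, chromosome 10 from 128270559 to 128292849, plus strand) was at 15.3 and 9.21 CPM in parental replicates 1 and 3 and at 30.5 and 22.2 CPM in TRCs. The lower TRC library was above the higher parental library, and the log2 fold change was 1.10 (SE 0.33, FDR = 0.0157). *Irf9*, its DNA-binding partner, was at 14.8 and 8.67 CPM in parental cells and at 18.6 and 10.5 CPM in TRCs. For this gene the groups overlapped, both replicate 1 libraries were above both replicate 3 libraries, and the log2 fold change was 0.31 (SE 0.39, FDR = 0.678). *Irf7*, which amplifies the type I response and is itself a target gene, had 126 and 11 counts in parental cells (replicate 1, then 3), against 91 and 75 in TRCs. Parental replicate 3 stood apart at 0.312 CPM, against 1.8 to 2.83 CPM in the other 3 libraries, and the log2 fold change of 0.33 had an SE of 0.90 (FDR = 0.821). *Irf3*, the factor that the sensors activate without new synthesis, had a log2 fold change of −0.021 (FDR = 0.972), and *Irf1* had one of 0.31 (FDR = 0.549).

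Of the sensors and their adaptors, *Mb21d1* (*Cgas*, ENSMUSG00000032344, chromosome 9 from 78430526 to 78443237, minus strand), the sensor of cytosolic DNA, was at 16.3 and 14.5 CPM in parental cells and at 9.19 and 6.13 CPM in TRCs. Both TRC libraries were below both parental libraries, with a 2.01-fold fall (SE 0.33 on the log2 scale, FDR = 0.0461). *Tmem173* (STING), the adaptor that acts after cGAS, had a log2 fold change of 0.12 (FDR = 0.815) and *Mavs*, the adaptor of the RNA sensors, one of 0.013 (FDR = 0.983). The RNA sensor *Ddx58* was at 26 and 7.40 CPM in parental replicates 1 and 3 and at 32.0 and 18.4 CPM in TRCs. *Ifih1* was at 15.5 and 7.03 CPM in parental cells and at 14.0 and 8.05 CPM in TRCs. In both RNA sensors the replicate 3 libraries were the lower ones and the groups overlapped, with FDR = 0.453 and 0.975. *Dhx58*, which modulates these sensors, had a log2 fold change of −0.79 (SE 0.41, FDR = 0.211).

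Among the effectors, *Rsad2* (viperin, ENSMUSG00000020641, chromosome 12 from 26442746 to 26456452, minus strand), an enzyme that makes a chain-terminating nucleotide, had the largest change. It was at 16.0 and 9.01 CPM in parental replicates 1 and 3 and at 42.4 and 31.1 CPM in TRCs. Both TRC libraries exceeded both parental ones, by 2.93 times on average, for a log2 value of 1.55 (SE 0.33, FDR = 0.000148). *Gbp2* (ENSMUSG00000028270, chromosome 3 from 142620602 to 142638008, plus strand), a guanylate-binding GTPase that acts against intracellular pathogens, was at 9.67 and 5.84 CPM in parental cells and at 2.67 and 3.75 CPM in TRCs. The groups did not overlap, and the log2 fold change was −1.27 (SE 0.43, FDR = 0.0367). *Gbp3*, of the same family, had a log2 fold change of −1.07 (FDR = 0.139) and *Gbp7* one of −0.19 (FDR = 0.855). *Cxcl10*, a chemokine that draws T cells, was at 15.4 and 20.0 CPM in parental cells and at 11.8 and 4.30 CPM in TRCs. Both TRC libraries were below both parental libraries, but the TRC libraries differed from each other, and the log2 fold change of −1.13 did not pass the test (SE 0.45, FDR = 0.0706).

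The genes listed as the ISG15 and ubiquitin system gave 0 calls. They are the ubiquitin-like modifier *Isg15* with *Usp18*, *Trim25*, *Dtx3l*, *Parp9* and *Parp14*. The 6 genes of this system all had a log2 fold change above 0, from 0.15 for *Isg15* to 0.87 for *Dtx3l*, with FDR = 0.0652 for *Dtx3l* and 0.0697 for *Parp9*. In the libraries numbered 1 alone, 4 of the 6 were above 0. The value of *Isg15* was −0.50 without parental replicate 3, −0.33 without TRC replicate 1 and 1.38 without parental replicate 1. The products of *Dtx3l* and *Parp9* work as a complex, and the genes share 458 exon bases on opposite strands, which is 8.0% and 9.4% of their exons. The strand setting of the counting is not stated, so counts from the shared bases cannot be assigned to either. Of the 10 antiviral effectors tested, *Rsad2* alone was called. *Eif2ak2* (PKR), a kinase that halts translation on double-stranded RNA, and *Adar*, which edits such RNA, had log2 fold changes of 0.17 and −0.061 with FDR = 0.672 and 0.897. *Mx1* was at 3.44 and 1.76 CPM in parental cells and at 3.44 and 1.27 CPM in TRCs, with a log2 fold change of −0.14 (FDR = 0.909). Per kilobase of exon, *Bst2* (tetherin), which holds budding virus at the cell surface, had the highest level of the 41 genes, at a mean of 38.6 CPM per kb in parental cells and 43.7 CPM per kb in TRCs.

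**Figure D2:**
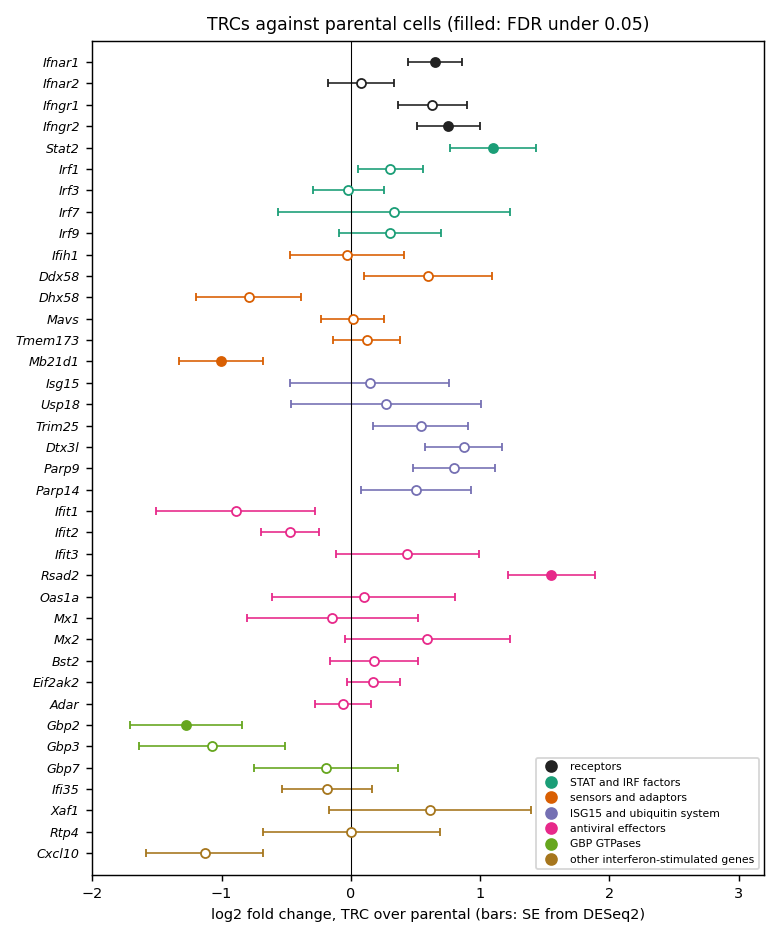
Log2 fold change of TRCs over parental cells for the 38 genes tested (x axis), with SE from DESeq2 as bars, colored by role, and filled points for FDR under 0.05. The 6 filled points are *Ifnar1*, *Ifngr2*, *Stat2* and *Rsad2* to the right of 0 and *Mb21d1* and *Gbp2* to the left, and the bars of *Irf7*, *Isg15*, *Usp18*, *Oas1a*, *Rtp4* and *Mx1* cross 0.

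The calls rest on 2 libraries per group, for which an exact permutation test cannot give a two-sided p below 0.333. In edgeR's quasi-likelihood test *Rsad2* was the only gene of the set called (FDR = 0.0276), where 9.18% of all genes were called, and the other 5 had an FDR from 0.0531 to 0.0831. When the libraries were dropped singly, none of the 6 genes was called each time. *Rsad2* was called without parental replicate 1, without parental replicate 3 and without TRC replicate 3, and had FDR = 0.0522 without TRC replicate 1. Without parental replicate 1, 7 genes were upregulated, of which *Ddx58*, *Irf7*, *Parp9*, *Trim25* and *Xaf1* were not called with all libraries, and without TRC replicate 1 the only call was a fall of *Cxcl10* by 2.05 on the log2 scale (FDR = 0.00315). These fits leave 1 library in a group, which is assumed to vary like the other group. Over all genes they called 16.8% without parental replicate 1, 7.52% without parental replicate 3, 6.73% without TRC replicate 1 and 6.73% without TRC replicate 3.

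Within each group, replicate 1 was higher than replicate 3 for most of these genes. In parental cells 30 of the 38 genes tested were higher in replicate 1, and in TRCs 32 were, where 49.6% and 49.9% of all genes tested were. The same direction in both groups, replicate 1 above replicate 3, was found for 27 genes (71.1%), against 26.5% of all genes. The opposite direction in both groups was found for 3 genes, *Ifnar1*, *Ifngr1* and *Tmem173*, which is 7.89% against 27% of all genes. This pattern was known from earlier results of these data when the genes were chosen, and each difference is between 1 library and 1 library, so these values are a description with no test. The median difference of replicate 1 minus replicate 3, on the scale of log2(CPM + 0.5), was 0.69 in parental cells and 0.44 in TRCs, against −0.0042 and −0.00068 over all genes.

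**Figure D3:**
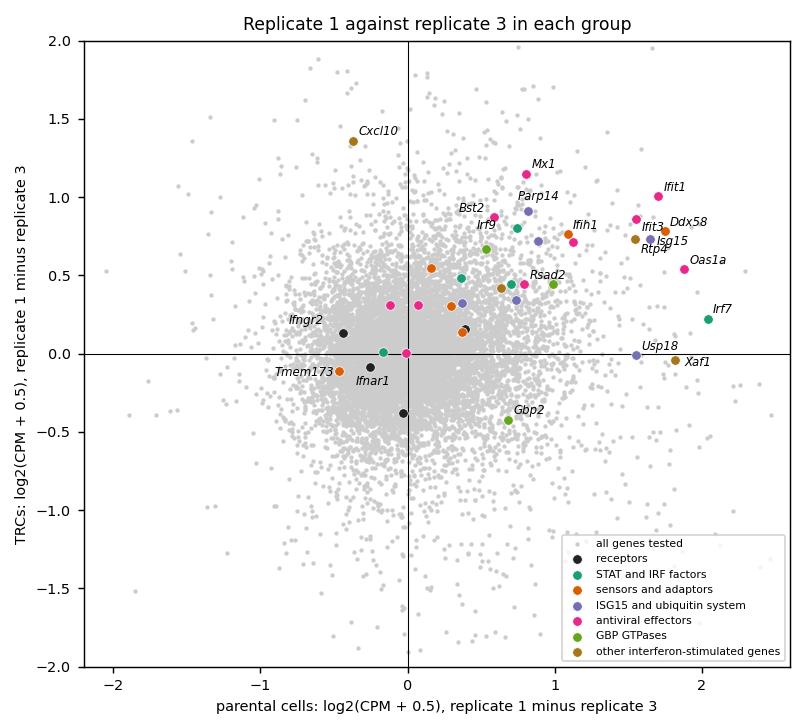
Difference between replicate 1 and replicate 3 in parental cells (x axis) and in TRCs (y axis), on the scale of log2(CPM + 0.5), for all genes tested (grey, of which 33 lie outside the axes) and for the 38 genes by role. The interferon-stimulated genes lie mostly in the upper right, with *Ifit1* at 1.70 and 1.01, while the receptor genes (black) lie near 0, from −0.44 to 0.39 in parental cells.

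The differences by number common to both groups were largest for *Ifit1* and *Ifit3*. *Ifit1* (ENSMUSG00000034459, chromosome 19 from 34640871 to 34650009, plus strand), which binds foreign RNA, was at 11.7 and 3.23 CPM in parental replicates 1 and 3 and at 5.53 and 2.50 CPM in TRC replicates 1 and 3. *Ifit3* (ENSMUSG00000074896, chromosome 19 from 34583531 to 34588731, plus strand), its partner, was at 9.78 and 3.00 CPM in parental cells and at 11.3 and 6.01 CPM in TRCs. Both genes were higher in both replicate 1 libraries than in both replicate 3 libraries. *Ifit2*, the third tested gene of the family, was at 77.1 and 83.9 CPM in parental cells and at 64.3 and 51.8 CPM in TRCs, and so did not follow the number. *Isg15* (ENSMUSG00000035692, chromosome 4 from 156199424 to 156200818, minus strand) was at 6.99 and 1.90 CPM in parental cells and at 6.28 and 3.58 CPM in TRCs, so that the higher library of each group was again replicate 1. *Parp14*, an ADP-ribosyltransferase, was at 12.2 and 6.69 CPM in parental cells and at 17.7 and 9.16 CPM in TRCs. *Rtp4*, an interferon-stimulated receptor chaperone, was at 4.52 and 1.22 CPM in parental cells and at 3.73 and 2.04 CPM in TRCs. With *Mx1*, *Ddx58*, *Ifih1* and *Irf9*, whose levels are given above, and with *Trim25*, these are the genes with the largest difference common to both groups, of at least 0.72 on the log2 scale in the group where it was smaller.

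By role, the replicate 1 library was the higher of its group, in TRCs and parental cells alike, for 8 of 10 antiviral effectors tested, 5 of 6 sensors and adaptors, 5 of 6 genes of the ISG15 and ubiquitin system, 4 of 5 transcription factors, 2 of 3 GTPases, 2 of 4 other target genes and 1 of 4 receptors. Both replicate 1 libraries were above both replicate 3 libraries for 20 of the 38 genes (52.6%), against 11.2% of all genes, and also for the untested *Oasl1*, *Oasl2* and *Ifi44*. *Ifi44* had 12 and 2 counts in parental cells (replicate 1, then 3), against 41 and 7 in TRCs. A difference of at least 1 on the log2 scale was found for 11 genes in parental cells (28.9%, against 3.07% of all genes) and for 3 genes in TRCs, *Ifit1*, *Mx1* and *Cxcl10* (7.89%, against 1.58%). *Ifit1* alone reached it in both groups (0.122% of all genes). Some genes differed by number in a single group. *Irf7*, *Xaf1* and *Usp18* were 9.09, 6.0 and 4.29 times as high in replicate 1 as in replicate 3 in parental cells, and 1.21, 0.966 and 0.990 times as high in TRCs. *Cxcl10* was 2.75 times as high in replicate 1 in TRCs and 0.768 times in parental cells. *Eif2ak2*, at 42.4 and 42.7 CPM in parental cells and at 48 CPM in both TRC libraries, did not follow the number.

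When the replicate number was tested across both groups, with the group as a term in edgeR's quasi-likelihood test, 0 of the 38 genes and 0 of all 11483 genes (0%) had an FDR under 0.05. An unadjusted p under 0.05 was found for 15 of the 38 genes (39.5%), all with replicate 1 higher, against 2.95% of all genes in that direction. The genes were chosen with this replicate pattern known, so the share of small p-values is a description and not a test of the set. The smallest of these p-values in edgeR were 0.00516 for *Ddx58* and 0.00591 for *Ifit1*, with an FDR of 0.85 for both, and this fit has 1 residual degree of freedom before moderation. DESeq2's Wald test of the same term called 25 of all 11483 genes (0.218%), of which 10369 had an adjusted p. It called 0 of the 31 genes of the set that it gave an adjusted p, with *Ddx58* at FDR = 0.0506, and gave none for the other 7. With no filter on low counts, the quasi-likelihood test called *Ifit1*, *Ddx58* and *Ifit3* among 119 genes (0.608%), all 3 higher in replicate 1.

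**Figure D4:**
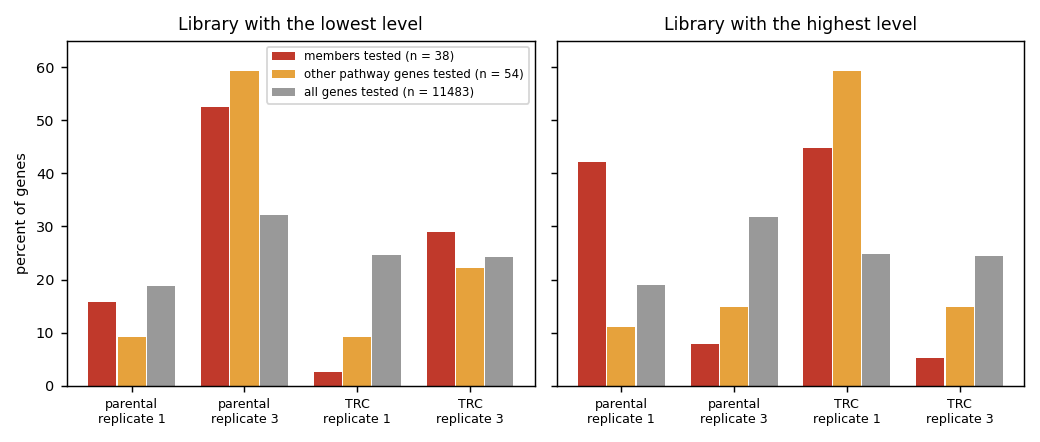
Percent of genes whose lowest level (left) or highest level (right) was found in each of the 4 libraries, for the 38 genes tested (red), 54 other genes of the pathway (orange) and all 11483 genes tested (grey). Parental replicate 3 was the lowest library for 52.6% of the 38 genes and TRC replicate 3 for 28.9%, while the highest library was replicate 1 of either group for 42.1% and 44.7%.

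The lowest of the 4 levels was in parental replicate 3 for 20 of the 38 genes and in TRC replicate 3 for 11, and the highest was in parental replicate 1 for 16 and in TRC replicate 1 for 17. Over all genes, the lowest level was in parental replicate 3 for 32.2% and in TRC replicate 3 for 24.2%, the latter close to the 28.9% of the set. The highest was in parental replicate 1 for 18.9% of all genes, in TRC replicate 1 for 24.8% and in parental replicate 3 for 31.8%. The summed level of the 6 genes of the ISG15 and ubiquitin system was 84.5 and 46.4 CPM in parental replicates 1 and 3 and 121 and 82.4 CPM in TRC replicates 1 and 3. That of the 12 antiviral effectors was 283, 241, 309 and 233 CPM in the same order. Set against the replicate difference averaged over both groups, the mean difference between TRCs and parental cells was the smaller of the 2 for 23 of the 38 genes (60.5%), against 29.3% of all genes.

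Compared only with the library of the same number, TRCs gave different directions for some target genes. In the number 1 pair the TRC minus parental difference on the scale of log2(CPM + 0.5) was −0.14 for *Isg15* and −0.16 for *Xaf1*, and in the number 3 pair it was 0.77 and 1.70. The sign differed between the pairs for 13 of the 38 genes (34.2%), against 27% of all genes. The median over the 38 genes was 0.024 in the number 1 pair and 0.23 in the number 3 pair, with 20 and 25 genes higher in TRCs. For the 6 genes called the groups did not overlap, which by itself fixes the same sign in both pairs, so this adds nothing to the calls. The differences were 1.38 and 1.73 for *Rsad2*, 0.97 and 1.23 for *Stat2*, and −1.68 and −0.58 for *Gbp2*.

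Other measures also differed between the replicates. The 12 mitochondrially encoded mRNAs tested were all higher in replicate 1 than in replicate 3 of the parental cells, with a median log2 difference of 0.66, while in TRCs 7 of 12 were higher, with a median of 0.069. Their summed level was 33233 CPM in parental replicate 3 and 45236 to 50526 CPM in the other libraries. The share of alignments dropped for mapping to several places was 15.2% and 18.3% in the replicate 1 libraries of parental cells and TRCs and 17.1% and 25.2% in the replicate 3 libraries. The share of alignments on no annotated gene was 4.09% and 4.25% in the replicate 1 libraries and 3.25% and 2.95% in the replicate 3 libraries. The leukocyte markers summed to 6.66 CPM in parental replicate 1 and to 2.79 to 3.36 CPM in the other 3 libraries. The part of these measures in the differences between replicates was not tested. Marker sums also differed between the groups. The 8 fibroblast markers summed to 12.1 and 10.1 CPM in parental cells and to 5.82 and 3.24 CPM in TRCs, with *Col1a2* called 5.73-fold lower in TRCs. *Col1a2* alone was at 6.70 and 7.79 CPM in parental replicates 1 and 3 and at 1.52 and 1.01 CPM in TRCs. The other 2 fibroblast markers tested, *Col1a1* and *Pdgfra*, had log2 fold changes of −0.38 and 0.13 and were not called, so the fall was not one of the whole list. The 10 melanocytic markers, of which *Dct* and *Oca2* were called higher, summed to 19489 and 16277 CPM in parental cells and to 24673 and 27441 CPM in TRCs. Their part in the TRC comparison was not tested.

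The other genes of the pathway were read from a list of 108 symbols, which has no gene in common with the 41. No interferon ligand was tested. Of 17 ligand genes with an identifier, 16 had 0 counts in each library, and the ligands summed to at most 0.0241 CPM. Of the remaining 54 genes tested, 8 were upregulated and 0 downregulated in TRCs (edgeR's exact test, with 2 genes lower at an unadjusted p under 0.05), against 8.81% and 7.05% of all genes, and their median log2 fold change was 0.31. The 8 became 12 without parental replicate 1, 1 without parental replicate 3, 2 without TRC replicate 1 and 3 without TRC replicate 3. The 5 with the smallest FDR were *Isg20*, *Stat3*, *Lgals3bp*, *Ikbke* and *Oas1c*. *Isg20*, an exonuclease, was at 1.08 and 0.425 CPM in parental cells and at 4.74 and 3.32 CPM in TRCs, so that the groups did not overlap (log2 fold change 2.40, FDR = 0.000354). *Stat3*, which acts mainly after cytokines of the interleukin-6 family, rose by 0.84 on the log2 scale (FDR = 0.00261), and *Ikbke*, a kinase that activates IRF3 and IRF7, by 1.02 (FDR = 0.0124). *Lgals3bp* rose by 0.78 on the log2 scale. *Oas1c* was at 0.945 and 0.340 CPM in parental cells and at 2.69 and 1.63 CPM in TRCs, so it passed the filter only through the TRC libraries. Its log2 fold change was 1.73 in the exact test (FDR = 0.0233), and edgeR's quasi-likelihood test did not call it (FDR = 0.103). In this list too, 30 of the 54 genes had replicate 1 above replicate 3 in each group, against 26.5% of all genes. Replicate 3 was higher in both groups for 5 of the 54, against 27% of all genes. The median differences were 0.31 in parental cells and 0.32 in TRCs, against −0.0042 and −0.00068 over all genes.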

How the data were processed

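Per the labels and the methods of the study, the authors extracted RNA from parental B16F1 cells and TRCs, made stranded libraries, sequenced them in single-end format, removed adapters with Trimmomatic 0.35 and mapped the reads to GRCm38 using TopHat2 2.1.0 and Bowtie2 2.2.6. Reads per Ensembl gene were tallied by htseq-count. What the authors deposited are these counts, unnormalized and 1 library per file, and the mode and strand setting of the counting are not given in the sources used here. The members and lists were chosen with earlier results of these data known.

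The htseq-count totals that are not genes were removed. Following the filter that the study states, genes below 1 CPM in 3 or 4 of the libraries were dropped, leaving 11483 of 39179 genes. The final table of the study holds fewer genes, so its gene set was not reproduced exactly. The exact test, on common then tagwise dispersions with TMM factors, came from edgeR 4.0.16 under R 4.3.3, and FDR was adjusted over all genes tested. SE came from DESeq2 1.42.0. CPM are counts over the TMM-scaled sum of the genes kept. Replicate differences used log2(CPM + 0.5). The tests were checked on simulated counts. Of the 41 symbols, 40 were found in GENCODE M21 and 1, *Mb21d1*, as a synonym. RefSeq promoters were held for 33.

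Values per library are given for the genes called, for the 8 with the largest replicate difference in the group where it was smaller, and for *Irf7*, *Irf9*, *Stat2*, *Ifnar1* and *Cxcl10*. They are also given for *Isg15*, *Ifngr1*, *Ifit2*, *Eif2ak2* and *Ifi44*, which the rule does not cover. Of the other pathway genes called, at most 5 in each direction by FDR are named, and a further gene that the rule names is not reported here. The remaining members are named to account for the set. Alternatives were other filters, normalizations, tests and pseudocounts, and each library left out in turn.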

Additional observations from a re-analysis of the deposited data

How the results depend on the processing

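Of these genes 4 were higher and 2 lower in TRCs. The quasi-likelihood test gave 1 and 0. With no filter on low counts, where 8.52% of all genes were called, 3 were higher and 1 lower. With library size as the only scaling, where 15.2% were, 4 were higher and 1 lower. DESeq2's Wald test, which called 17.7% of all genes, gave 5 higher and 2 lower. With each library left out in turn, 0 to 7 genes were higher and 0 to 1 lower, and the median log2 fold change ran from −0.14 to 0.54. Of the other genes of the pathway, 8 were higher and 0 lower. Here the quasi-likelihood test gave 3 higher, no filter gave 5 higher and 1 lower, and leaving out a library gave 1 to 12 higher and 0 to 2 lower. The replicate number called 0 genes of the set, and 3 with no filter. The cause of these changes was not tested. Deviations of equal-numbered libraries from their group means correlated across genes with r = 0.027. This value is taken over all genes tested and cannot show whether samples of equal number were paired, which no label states. With the replicate block, the quasi-likelihood test gave 2 genes higher (*Rsad2* and *Stat2*) and 0 lower, where 6.84% of all genes were called, and 4 other pathway genes higher. Depth limits *Irf7*, *Oasl1*, *Oasl2* and *Ifi44* most, which had under 15 counts in at least 1 library.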

Other observations

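Among the other genes of the pathway, *Ifi27*, an interferon-stimulated gene whose product lies in membranes, was at 44.6 and 12.8 CPM in parental replicates 1 and 3 and at 57.4 and 35.8 CPM in TRC replicates 1 and 3. Replicate 1 was the higher library of each group. This was the one gene of that list that DESeq2 called by replicate number (FDR = 0.0433), where 0.218% of all genes were called. In edgeR's quasi-likelihood test of the number *Ifi27* was not called (FDR = 0.85). It was chosen after its values were seen.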
